A study of Saccharomyces cerevisiae with 4 samples.

Results

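The genes described here encode the cytosolic Hsp70 chaperones of budding yeast (SSA1, SSA2, SSA3, SSA4, SSB1 and SSB2) and the nucleotide exchange factors that act on them (SSE1, SSE2, FES1 and SNL1). They were chosen by name, and all 10 were found among the 7071 genes of the tables and passed the filter on low counts. Each is a single coding exon in R64, and no other gene of the R64 annotation used here overlaps it. Total RNA was sequenced from Saccharomyces cerevisiae strain CB67, of W303 origin and wild type, after arrest in G2/M. Thiolutin, an inhibitor of yeast RNA polymerases, was given to the cultures of 2 libraries at 20 µg/ml for 30 min, and DMSO, the control, to the cultures of the other 2. All 4 cultures carried the arrest itself, made with benomyl at 80 µg/ml for 90 min at 30°C, a drug that depolymerises microtubules, so no library shows cycling cells. Each library is named by its letter, a or b. Schizosaccharomyces pombe cells were mixed into each pellet before extraction, and their reads were not used here. The labels do not say that the letters are separate cultures, so p-values measure the spread between these libraries.

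Hsp70 proteins bind short hydrophobic stretches of unfolded proteins and release them in a cycle driven by ATP. J-domain proteins deliver the client and stimulate hydrolysis, and exchange factors remove ADP so that the client can leave. In yeast the Ssa proteins serve general folding, refolding and protein transport, whereas the Ssb proteins sit on ribosomes and receive nascent chains. Transcription of many of these genes is under the heat shock factor Hsf1, which binds heat shock elements, and some are also under Msn2 and Msn4, which bind stress response elements.

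The libraries held 38613462 and 11598766 expected counts with thiolutin and 27262771 and 48045781 with DMSO. Protein-coding genes made up 6.56% and 8.12% of these with thiolutin, against 11.8% and 11.2% with DMSO, and the remainder was mainly ribosomal RNA. Levels are given as CPM, counts relative to library size, with library sizes scaled by TMM so that the typical gene shows no change. Across all genes tested the median log2 fold change was -0.02 on this scale. It was -0.99 when libraries were scaled to their total counts and -1.26 when they were scaled to SCR1, the RNA of the signal recognition particle. A CPM value is thus a level relative to other transcripts. Amounts per cell were not estimated, since the reads of the added S. pombe cells were not used. The paper used such reads to normalize its TPM values. On the TMM, library-total or SCR1 scale, a rise of a gene and a fall of the RNA it is scaled to cannot be told apart.

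On the TMM scale SSA1, SSA2, SSA4, SSE1, SSE2 and FES1 rose with thiolutin. That is 6 of 10 genes at an adjusted p under 0.05 (edgeR quasi-likelihood test with Benjamini-Hochberg adjustment over 5527 genes), where 18.5% of all genes tested were higher. None of the 10 passed in the other direction, where 17.6% of all genes were lower. At an unadjusted p under 0.05 the counts were 8 higher and 1 lower, against 23.1% and 22.8% of all genes. The DESeq2 Wald test gave 7 higher and 0 lower, against 15.4% and 10.4%. The likelihood ratio test gave 7 higher and 1 lower, against 20.3% and 20.4%. At the stricter threshold of 1e-05, SSA4, SSE2 and FES1 were called, or 3 of 10, against 0.796% of all genes higher and 0.199% lower. The thiolutin libraries lay wholly above or wholly below the DMSO libraries for all 10 genes, as they did for 69.9% of all genes. The median log2 fold change of the 10 genes was 1.27.

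**Figure D1:**
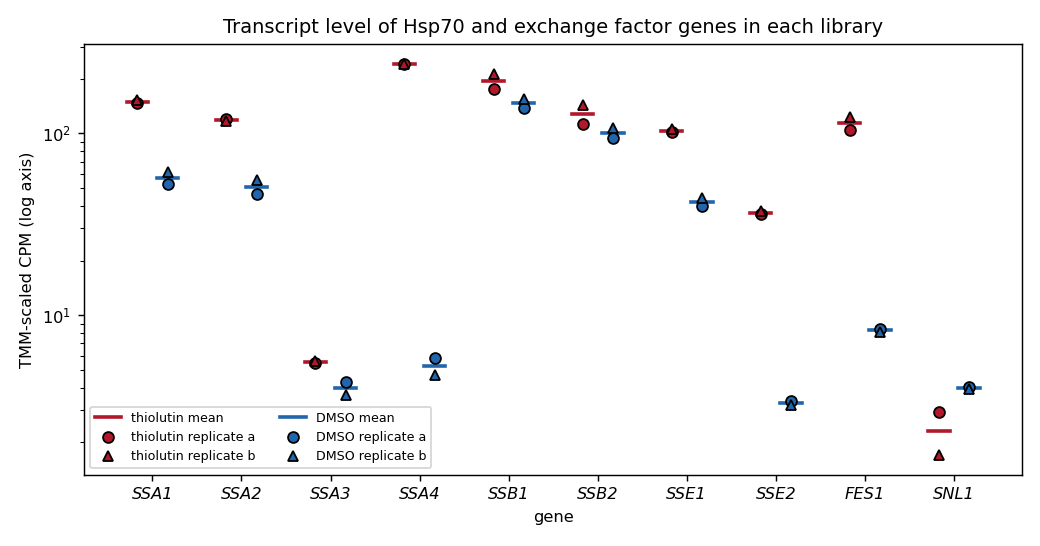
TMM-scaled CPM (log axis) of the 10 genes in each library, thiolutin in red to the left of DMSO in blue, with circles for replicate a, triangles for replicate b and a bar at the mean. SSA4, SSE2 and FES1 show the widest gaps between groups, and SNL1 alone lies lower with thiolutin.

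Of the 4 SSA genes, SSA4 showed the greatest change. The gene (YER103W, chrV:364589-366517 in R64) encodes a stress-inducible Hsp70 that is scarce in unstressed cells. SSA4 stood at 242 CPM in both thiolutin libraries, against 5.79 and 4.72 CPM in the DMSO libraries. The libraries of a group were close to each other and the groups far apart. Its log2 fold change was 5.53 ± 0.19 (SE, n = 2 libraries each), a 46.2-fold difference, with an adjusted p of 1.68e-08 by edgeR's quasi-likelihood test. By fold change SSA4 ranked 5 of the 5270 protein-coding genes tested. Below are the bases 300 to 151 before the start codons of SSA4, SSA3 and SSA1, shown because these paralogs changed to very different degrees. They were read from R64, the S288C reference, and not from strain CB67. Capitals mark exact matches to the heat shock element and stress response element spellings given with the motif counts. An element with a changed base stays in lower case.
SSA4, chrV:364289-364438, plus strand: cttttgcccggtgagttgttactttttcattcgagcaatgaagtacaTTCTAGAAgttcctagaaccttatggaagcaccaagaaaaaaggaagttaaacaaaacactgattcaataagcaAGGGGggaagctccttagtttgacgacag
SSA3, chrII:86599-86748, minus strand: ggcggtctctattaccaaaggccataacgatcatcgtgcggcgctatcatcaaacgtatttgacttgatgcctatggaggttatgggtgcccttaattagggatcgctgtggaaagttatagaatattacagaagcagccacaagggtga
SSA1, chrI:141582-141731, minus strand: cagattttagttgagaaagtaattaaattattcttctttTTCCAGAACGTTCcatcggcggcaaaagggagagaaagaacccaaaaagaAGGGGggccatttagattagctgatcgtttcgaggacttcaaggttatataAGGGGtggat

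SSA3 (YBL075C, chrII:84499-86448) encodes the other stress-inducible Ssa protein. Its level was 5.50 and 5.63 CPM with thiolutin and 4.28 and 3.64 CPM with DMSO. These values were low in every library, with 53 to 237 expected counts. The log2 fold change was 0.49 ± 0.19 (SE), and the adjusted p by edgeR was 0.0585. The likelihood ratio test gave an adjusted p of 0.0408 and the DESeq2 Wald test 0.233. Without thiolutin library a the log2 fold change was 0.52, and without thiolutin library b 0.47. Without DMSO library a it was 0.61, and without DMSO library b 0.38. The coding sequences of SSA3 and SSA4 are 76.5% identical, and the proteins 87.5%. No stretch of 66 bases in either coding sequence occurs in another, a length close to the fragment length behind the effective lengths.

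SSA1 (YAL005C, chrI:139503-141431) and SSA2 (YLL024C, chrXII:95566-97485) encode the Ssa proteins that are abundant in growing cells. SSA1 was measured at 147 and 153 CPM with thiolutin, against 52.8 and 60.9 CPM with DMSO. Its log2 fold change was 1.39 ± 0.16 (SE), with an adjusted p of 8.68e-05 by edgeR. SSA2 was measured at 120 and 117 CPM with thiolutin, against 46.4 and 55.3 CPM with DMSO, a log2 fold change of 1.22 ± 0.16 (SE) with an adjusted p of 0.000217 by edgeR. The pair moved side by side, and for both the gap between groups exceeded the gap between libraries. The split of reads between these copies is uncertain, since their coding sequences are 96.4% identical and 54.1% of the 66-base stretches of SSA1 also occur in another coding sequence. With their counts summed, the pair had a log2 fold change of 1.32 ± 0.16 (SE) and an adjusted p of 0.000168 by edgeR.

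SSB1 (YDL229W, chrIV:44065-45906) and SSB2 (YNL209W, chrXIV:252059-253900) encode the ribosome-bound Hsp70 proteins. SSB1 stood at 176 and 211 CPM with thiolutin, against 138 and 154 CPM with DMSO. The log2 fold change was 0.40 ± 0.16 (SE) and did not pass the test (adjusted p of 0.0803, edgeR). SSB2 stood at 112 and 144 CPM with thiolutin, against 94.0 and 107 CPM with DMSO, a log2 fold change of 0.34 ± 0.17 (SE) with an adjusted p of 0.137 by edgeR. Without thiolutin library a the log2 fold changes were 0.53 for SSB1 and 0.52 for SSB2, and without thiolutin library b 0.25 and 0.14. Without DMSO library a they were 0.33 for SSB1 and 0.26 for SSB2, and without DMSO library b 0.48 and 0.44. The proteins differ at 4 aligned positions, and 38.2% of the 66-base stretches of each gene occur in another coding sequence. With their counts summed, the log2 fold change was 0.38 ± 0.17 (SE) and the adjusted p was 0.114 by edgeR.

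Among the exchange factors, FES1 and SSE2 changed most. FES1 (YBR101C, chrII:443821-444693) encodes a cytosolic exchange factor of the armadillo-repeat type. It was measured at 105 and 123 CPM with thiolutin, against 8.43 and 8.08 CPM with DMSO. The log2 fold change was 3.78 ± 0.17 (SE), 13.8-fold, with an adjusted p of 7.42e-08 by edgeR. SSE1 (YPL106C, chrXVI:350194-352275) and SSE2 (YBR169C, chrII:573915-575996) encode the Hsp110 proteins, distant relatives of Hsp70 that act as its main exchange factors. SSE2, the inducible copy, stood at 35.9 and 37.2 CPM with thiolutin, against 3.38 and 3.21 CPM with DMSO. Its log2 fold change was 3.47 ± 0.16 (SE), 11.1-fold, with an adjusted p of 7.42e-08 by edgeR. SSE1, the copy abundant in growing cells, stood at 101 and 106 CPM with thiolutin, against 39.7 and 43.9 CPM with DMSO, a log2 fold change of 1.31 ± 0.15 (SE) with an adjusted p of 9.93e-05. For these 3 genes the libraries of a group lay close together. The bases 300 to 151 before the start codons of FES1 and SSE2 in R64 are shown in the same way, with motif matches in capitals.
FES1, chrII:444844-444993, minus strand: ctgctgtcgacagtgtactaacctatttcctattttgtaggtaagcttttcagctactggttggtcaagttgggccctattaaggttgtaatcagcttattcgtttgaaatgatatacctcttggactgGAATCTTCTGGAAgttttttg
SSE2, chrII:576147-576296, minus strand: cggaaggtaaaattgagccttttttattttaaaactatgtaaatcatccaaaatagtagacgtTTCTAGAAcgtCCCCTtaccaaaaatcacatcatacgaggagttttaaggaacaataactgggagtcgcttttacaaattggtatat

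SNL1 (YIL016W, chrIX:321454-321933) encodes an exchange factor of the BAG-domain type that is anchored in the membrane of the endoplasmic reticulum and nuclear envelope. It was measured at 2.93 and 1.70 CPM with thiolutin, against 4.02 and 3.93 CPM with DMSO. These rest on 72 and 16 expected counts with thiolutin, against 157 and 256 with DMSO, so thiolutin library b carries few reads. The log2 fold change was -0.67 ± 0.24 (SE), and the adjusted p of 0.0501 by edgeR lay at the threshold. Without thiolutin library a, which leaves the library with 16 counts, the log2 fold change was -1.22, and without thiolutin library b it was -0.46. Without DMSO library a it was -0.68, and without DMSO library b -0.72.

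The direction of several genes depended on the scale. Scaled to library totals, SSA4, FES1 and SSE2 remained higher, with log2 fold changes of 4.58, 2.85 and 2.52, where 2.08% of all genes were higher. On this scale SSB1, SSB2 and SNL1 fell, with log2 fold changes of -0.53, -0.58 and -1.71, where 65.9% of all genes were lower. The SCR1 scale rests on a single RNA, whose share of the counts differed between libraries of a group. That share was 1.72% and 2.47% with thiolutin, against 1.80% and 1.56% with DMSO. On the SCR1 scale SSA4, FES1 and SSE2 were higher, at 4.28, 2.53 and 2.22, against 1.59% of all genes. SSA3 (-0.74), SSB1 (-0.86), SSB2 (-0.92) and SNL1 (-1.91) fell on it, against 82.7% of all genes. SSA1, SSA2 and SSE1 passed in neither direction on either scale, with log2 fold changes of 0.45, 0.28 and 0.37 on library totals and 0.14, -0.035 and 0.053 on the SCR1 scale. SSA3 and both SSB genes lay above the median gene on all 3 scales, and SNL1 below it.

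**Figure D2:**
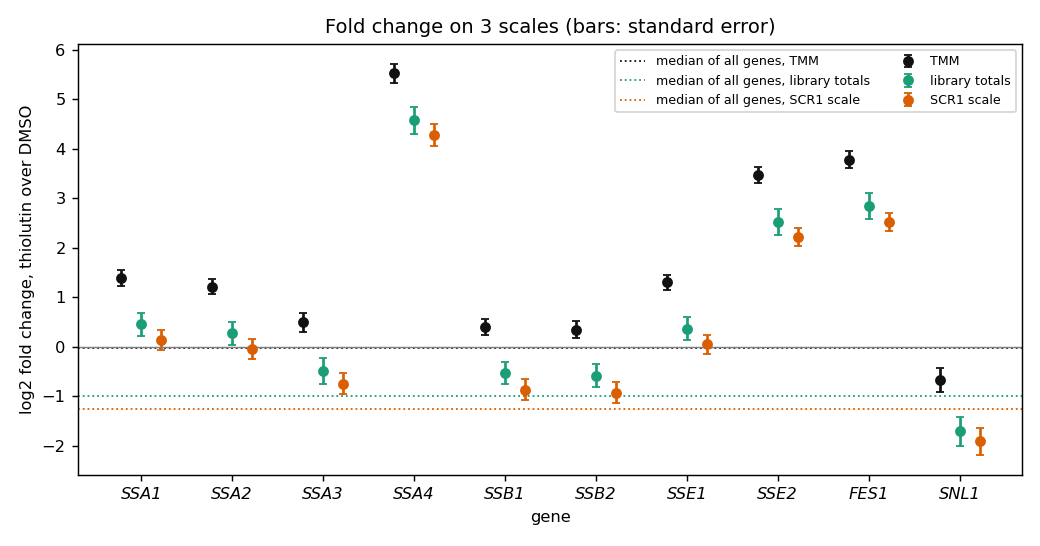
Log2 fold change, thiolutin over DMSO, of each gene on the TMM, library-total and SCR1 scales, with bars for the standard error and dotted lines at the median of all genes on each scale. SSA4, SSE2 and FES1 lie above 0 on all 3 scales, whereas SSA1, SSA2 and SSE1 lie near 0 on the SCR1 scale.

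Ratios between genes of a library do not depend on the scale between libraries. They were computed from TPM, which is adjusted for gene length. SSA4 made up 47.0% and 46.7% of the summed SSA TPM with thiolutin, against 5.30% and 3.81% with DMSO, a difference of 42.3 percentage points. The log2 ratio of SSA4 to SSA3 was 5.49 and 5.43 with thiolutin, against 0.45 and 0.38 with DMSO, a difference of 5.04. With 1 added to each TPM value that difference was 3.33, since SSA3 stood at 0.24 to 0.46 TPM in the 4 libraries. The log2 ratio of SSE2 to SSE1 was -1.50 and -1.51 with thiolutin, against -3.55 and -3.79 with DMSO, a difference of 2.17. Treated in the same way it was 0.79, since SSE2 stood at 0.34 and 0.29 TPM with DMSO.

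The log2 ratio of summed SSA to summed SSB TPM was 0.77 and 0.48 with thiolutin, against -1.16 and -1.13 with DMSO, so the SSA sum was the greater one with thiolutin and the SSB sum with DMSO. The log2 ratio of SSA1 to SSA2 was 0.28 and 0.37 with thiolutin, against 0.18 and 0.13 with DMSO. That of SSB1 to SSB2 was 0.65 and 0.55 with thiolutin, against 0.56 and 0.53 with DMSO, and its groups overlapped. In a two-sided exact permutation test over the libraries, 2 against 2 cannot go below p = 0.333. The SSB1 to SSB2 ratio gave 0.667 and the other 5 of the 6 relations 0.333, with Benjamini-Hochberg adjusted values of 0.667 and 0.4.

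For length-adjusted levels, TPM was recomputed over protein-coding genes alone. On this scale the SSA genes summed to 1681 and 1936 with thiolutin, against 448 and 518 with DMSO. The SSB genes summed to 986 and 1389 with thiolutin, against 997 and 1135 with DMSO, and the groups overlapped. The 4 exchange factors summed to 1246 and 1586 with thiolutin, against 316 and 331 with DMSO. Relative to the summed Hsp70 genes they stood at 46.7% and 47.7% with thiolutin, against 21.9% and 20.0% with DMSO. FES1 alone was 65.2% ± 2.6 of the exchange factor sum with thiolutin and 24.2% ± 1.3 with DMSO (SD, n = 2 each).

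The order of the genes by this level differed between the groups. With thiolutin FES1 came first at 925 ± 193 (SD, n = 2), followed by SSA4 at 847 ± 80.6 and SSB1 at 714 ± 159, and neighbours among these 3 lay within their spread. SSA1 (525 ± 64.1), SSB2 (474 ± 126) and SSA2 (418 ± 33.3) followed, also within their spread, then SSE1 (336 ± 42.9), SSE2 (118 ± 14.4), SNL1 (35.8 ± 10.3) and SSA3 (19.3 ± 2.43). With DMSO SSB1 came first at 632 ± 53.6 and SSB2 next at 434 ± 44.4. SSA1 (234 ± 26.0) and SSA2 (211 ± 28.4) lay within their spread of each other. SSE1 (159 ± 13.0), FES1 (78.4 ± 1.60), SNL1 (73.4 ± 0.57), SSA4 (21.7 ± 2.83), SSA3 (16.2 ± 1.57) and SSE2 (12.5 ± 0.45) closed the order.

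**Figure D3:**
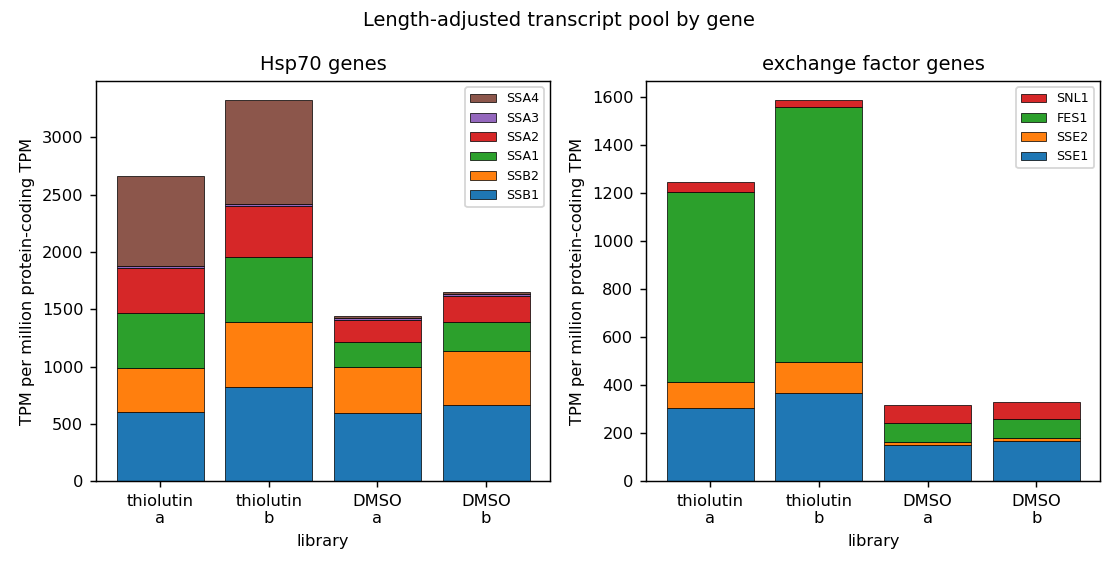
Stacked TPM, recomputed over protein-coding genes alone, in each library, thiolutin to the left of DMSO, for the Hsp70 genes (left) and the exchange factor genes (right). SSA4 and FES1 take up most of the added height in the thiolutin libraries, and the heights of the SSB blocks overlap between the groups.

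The regions before the start codons of the genes other than SSE1 were searched for 3 motifs on both strands. The 2-unit heat shock element was spelled GAANNTTC or TTCNNGAA. The 3-unit element continues it with NN and a further GAA or TTC in alternation, so every 3-unit match also holds 2-unit matches. The stress response element was spelled AGGGG or CCCCT. In the 300 bases before the start codon, the 3-unit element occurred in SSA1, SSA2 and FES1, and in 0.867% of all 6001 such regions. The 2-unit element occurred in 6 of the 9 genes searched, namely SSB2 and the 5 of them that rose, and in 22.4% of all regions. In SSA4 it lay 253 to 246 bases before the start codon, in SSE2 237 to 230 bases, and in SSB2 34 to 27 bases. The stress response element occurred in SSA1, SSA4, SSE2 and SNL1, and in 22.2% of all regions. SSA3 and SSB1 held none of the 3 spellings, and the SSA3 region runs into the neighbouring gene AAR2. A match here is a match of letters, not evidence of binding. Only the exact spellings were searched, so a region without a match may still hold an element with a changed base.

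**Figure D4:**
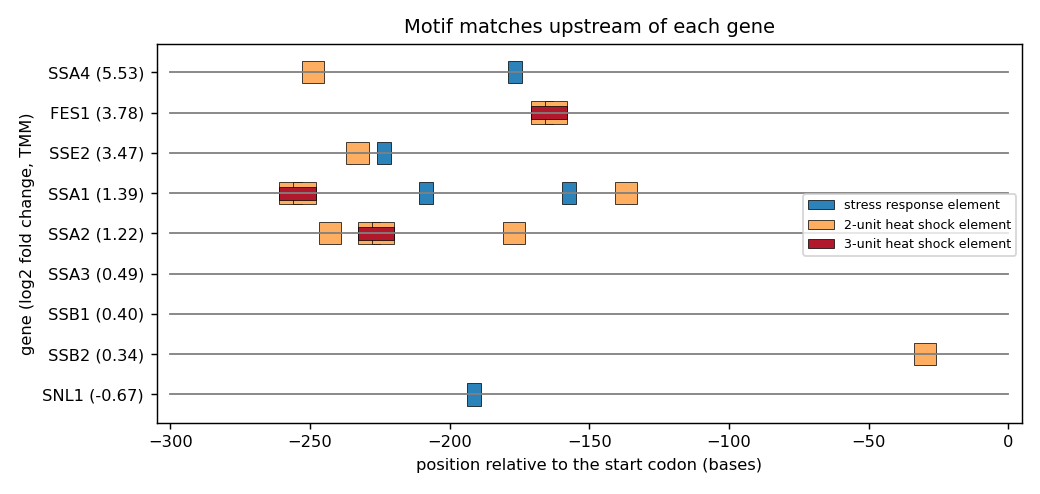
Motif matches in the 300 bases before each start codon of the 9 genes searched, ordered by log2 fold change on the TMM scale, with orange for the 2-unit and red for the 3-unit heat shock element and blue for the stress response element. The 5 genes at the top, which rose, each hold a heat shock element match. SSB2, which did not pass the test, holds one too, 34 to 27 bases before the start codon. The 2-unit element occurred in 22.4% of all regions of 300 bases.

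Genes that work with these chaperones were counted on the TMM scale, where 18.5% of all genes tested were higher and 17.6% lower. Of 14 cytosolic partners (J-domain proteins, the disaggregase HSP104 and the cochaperones STI1 and CNS1), 7 rose and 1 fell, with a median log2 fold change of 0.77. HSP104, whose product pulls proteins out of aggregates together with Hsp70, had the highest value of the list at 3.31. JJJ3, a J-domain protein, had the lowest at -2.63 and was the gene that fell. Its level was low in every library, at 0.122 and 0.213 CPM with thiolutin, against 0.769 and 1.09 CPM with DMSO. On library totals 5 of the 14 were higher and 4 lower (median -0.19), where 2.08% of all genes were higher and 65.9% lower. On the SCR1 scale 4 were higher and 6 lower (median -0.48), where 1.59% of all genes were higher and 82.7% lower. Of the 5 ribosome-associated partners of Ssb and subunits of the nascent chain complex, 4 rose and 1 fell, with a median of 0.69. SSZ1, an Hsp70-like subunit of the ribosome-associated complex, stood at 0.74, and BTT1, a minor subunit of the nascent chain complex, at -1.60. BTT1, the gene that fell, was also low in every library. It stood at 0.244 and 0.425 CPM with thiolutin, against 0.820 and 1.01 CPM with DMSO. On library totals none of these 5 was higher and 1 was lower, and on the SCR1 scale all 5 were lower, with medians of -0.28 and -0.55.

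Of 7 genes of the Hsp70 systems in the endoplasmic reticulum and mitochondria, 3 rose and 1 fell, with a median of 0.46. KAR2, the Hsp70 of the endoplasmic reticulum, had the highest value at 0.98. SIL1, an exchange factor that acts on it, had the lowest at -0.76. LHS1, also of this list, rose, at 0.96 (adjusted p of 0.000781, edgeR). On library totals none of the 7 was higher and 3 were lower (median -0.54), with KAR2 at 0.029, and on the SCR1 scale none was higher and 4 were lower (median -0.78). Among 132 cytosolic ribosomal protein genes, 27 rose and 6 fell on the TMM scale, with a median of 0.15. On library totals none of them was higher and 101 were lower (median -0.82), and on the SCR1 scale none was higher and 126 were lower (median -1.09). Over all genes tested, 1024 (18.5%) rose and 971 (17.6%) fell on the TMM scale. The shares higher and lower were 2.08% and 65.9% on library totals, and 1.59% and 82.7% on the SCR1 scale.

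**Figure D5:**
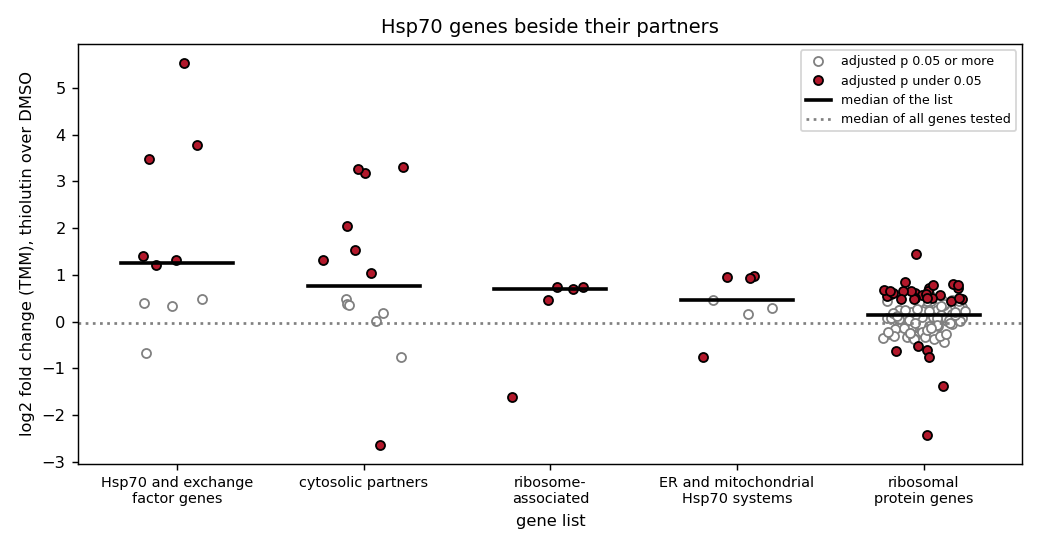
Log2 fold change (TMM), thiolutin over DMSO, of the Hsp70 and exchange factor genes and of 4 other lists, with filled points at an adjusted p under 0.05, a bar at each list's median and a dotted line at the median of all genes tested. The Hsp70 and exchange factor genes have a median of 1.27, and the cytosolic partners 0.77.

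The genes whose pattern over the 4 libraries was nearest to a given gene were sought among 4121 protein-coding genes, by the Euclidean distance of centred log2 CPM. For SSA4 they were ATG41 (distance 0.78), which acts in autophagy, HSP42 (0.96), a small heat shock protein gene, and HXT7 (0.98), a hexose transporter gene with a near-identical copy. For SSE2 they were HSP104 (0.17), SNG1 (0.17), a gene of drug resistance, and APJ1 (0.27), a J-domain protein gene. For SSB1 they were FUR1 (0.042), which acts in pyrimidine salvage, NUM1 (0.045), a cortical protein gene, and TEF4 (0.052), which encodes a translation elongation factor subunit. With 4 libraries in 2 groups, such nearness mainly shows a like fold change.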

How the data were processed

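Reads were mapped by the authors with STAR 2.7.3a and quantified with RSEM 1.3.1 for reverse-stranded reads, after depletion of large ribosomal RNA. The submitters' processing notes also name Bowtie 1.2.2 and the build sacCer3. The deposited expected counts are unnormalized estimates in which reads of several genes are divided between them. The authors' software also gave TPM, adjusted for effective length and deposited to 2 decimals without a spike-in factor. The FPKM column was left out. Of 7071 gene identifiers, 6006 matched R64, and 5988 of these are protein-coding.

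Expected counts were rounded to whole numbers (ties up), filtered with filterByExpr, scaled by TMM and tested with the quasi-likelihood test of edgeR 4.0.16 in R 4.3.3. The other settings used limma 3.58.1, DESeq2 1.42.0, other scales, filters and thresholds, and each library left out. The libraries of a group were kept as separate samples, since their counts differed beyond sampling noise (chi-square over its degrees of freedom, 6.78 with thiolutin and 4.53 with DMSO). The procedure was also run on simulated counts, but the outcome is not given here, so no conclusion is drawn from it.

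All 10 genes are named, with the highest and lowest gene of each partner list and LHS1. The 3 nearest genes to SSA4, SSE2 and SSB1 are named among those with a mean of at least 50 normalized counts. Genes and lists were chosen with earlier results of these data known. The region before SSE1 is not reported here.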

Additional observations from a re-analysis of the deposited data

How the results depend on the processing

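Of 10 genes, 6 were higher and 0 lower, against 18.5% and 17.6% of all genes tested. The number higher was 3 on library totals (2.08% of all genes), on the SCR1 scale (1.59%) and at a threshold of 1e-05 (0.796%). With limma on log2(TPM + 0.1) or log2(TPM + 0.01) it was also 3. The number lower was 3 on library totals (65.9% of all genes) and 4 on the SCR1 scale (82.7%). It was 1, SNL1, with no filter on low counts, the likelihood ratio test, the replicate block, either limma setting, and near-identical pairs summed. The share of all genes is not given here for limma, the count filters or the summed pairs, so those counts describe the 10 genes only. With each library left out in turn, no log2 fold change of the 10 genes changed sign. In these fits a library left alone in its group was assumed to vary like the other group, so their calls are not given. With at least 50 counts asked of every library the calls were the same, SNL1 was not tested, and log2 fold changes were lower, at 0.19 for SSA3, 0.091 for SSB1, 0.035 for SSB2, 1.09 for SSA1, 0.92 for SSA2 and 1.00 for SSE1. The cause was not tested. Directions turned for SSA2 (-0.035 on the SCR1 scale) and, in the order library totals, SCR1, TPM + 0.1 and TPM + 0.01, for SSA3 (-0.48, -0.74, -0.31, -0.40), SSB1 (-0.53, -0.86, -0.49, -0.50) and SSB2 (-0.58, -0.92, -0.55, -0.55). Both alternative scales and the TPM settings keep the lower share of protein-coding reads in the thiolutin libraries, which TMM removes. No shift shared by libraries of the same letter was seen across genes (correlation of a minus b between the groups 0.033). That value cannot show whether they were prepared together. With the replicate block, SNL1 had a log2 fold change of -0.74 (adjusted p 0.0352, edgeR, against 2.64e-05 to 0.185 over all settings), and over all genes 1069 were higher and 942 lower. The 6 ratios and shares kept their direction under every setting run. Depth limits SNL1 most, with 16 expected counts in thiolutin library b.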

Other observations

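The genes next to the 10 were also compared. Of 20 neighbours 18 were tested, of which 2 were higher with thiolutin (ILS1 beside SSA3, log2 fold change 0.90, and YNL208W beside SSB2, 1.12) and 4 lower on the TMM scale, with a median of -0.28, where 18.5% of all genes tested were higher and 17.6% lower. On library totals 0 were higher and 13 lower (median -1.19), and on the SCR1 scale 0 and 14 (median -1.52), where 65.9% and 82.7% of all genes were lower. On the TMM scale the neighbours lower with thiolutin were AAR2 beside SSA3 (-1.14), DPC25 beside SSE1 (-1.36), PEX32 beside SSE2 (-1.40) and VID28 beside SNL1 (-1.13). The neighbours of SSA4, RPS8B (0.26) and RTT105 (-1.33), did not pass the test on it.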
